A study of Rattus norvegicus with 53 samples.

Results

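Olfm1 was described across 53 expression arrays of rat blood cells that had been cultured with serum or plasma of different donors. The gene was identified by its annotation: 2 of the 31042 probe sets analysed carry the symbol Olfm1, and all 14217 genes with a probe set of a single symbol stood beside it. Olfm1 was chosen by its measured difference between cells cultured with serum of rats that had received the interleukin 1 receptor antagonist, IL-1RA, and cells with serum of control rats of the same day. That difference is therefore given as values, with no test.

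Olfm1 encodes olfactomedin 1, also called noelin or pancortin, a secreted glycoprotein known mainly from the brain. It belongs to the family of proteins that share the olfactomedin domain, it binds partners at synapses such as AMPA receptor complexes and the Nogo receptor, and alternative promoters and splicing give it several isoforms. IL-1RA is a natural inhibitor that occupies the type 1 IL-1 receptor without signalling, and so keeps IL-1 alpha and IL-1 beta from acting on a cell.

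Each array holds RNA of peripheral blood mononuclear cells (PBMC) of healthy Brown Norway (BN) rats of 180 days, kept for 6 h with serum or plasma, at 20% where the labels give a share. The cells were therefore of one strain in all 8 groups, and the groups differ in the serum. The BN groups were autologous serum (10 arrays), serum of other BN rats, called allogeneic (15 arrays), and autologous serum with added IL-1B (4 arrays). All BN sera were of rats of 180 days, and the BioBreeding sera were of younger rats. Strain and age of the serum donor therefore cannot be told apart between BN and BioBreeding sera. Sera of BioBreeding rats came at day 60 from DRlyp/lyp rats, the lymphopenic line that develops diabetes (4 arrays), from the non-lymphopenic DR+/+ line (4 arrays), and again from DRlyp/lyp rats but with IL-1RA added to the culture (4 arrays). The remaining sera were taken at day 40 from DRlyp/lyp rats that had been injected for 10 days from day 30 with human IL-1RA, at 350 ug per kg per day (6 arrays), or with buffered saline, PBS (6 arrays). For the IL-1RA rats the sample names speak of serum with IL-1RA added, whereas the series' design speaks of treated rats; the design was followed here. The labels do not say whether arrays of a group came from separate serum donors or cell donors, so p-values measure the spread between these arrays, which may be technical, and the number of arrays limits the precision.

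The arrays fell into 2 clusters over all probe sets that the labels do not describe. The first cluster held 21 arrays: all 12 of day 40, autologous arrays 1 to 6 and allogeneic arrays 1 to 3. The second held the other 32: autologous arrays 7 to 10, allogeneic arrays 4 to 15, and all arrays with day-60 serum or added IL-1B. The difference between the 3′ and the 5′ control probe sets of beta-actin, a measure of RNA integrity, averaged 3.58 on the log2 scale in the first cluster (SD 0.759, n = 21) and 2.58 in the second (SD 0.402, n = 32). Group comparisons that span both clusters are therefore given pooled and within a cluster.

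The probe set with the higher mean over all arrays, 1369008_a_at (mean log2 level 5.87), was used as the lead probe set. The other, 1387927_a_at, had a mean of 4.32 and lay under the median of all probe sets. Signals of different probe sets are not comparable as amounts of RNA, so each was followed only across arrays. All levels are log2 values, on which a difference of 1 is a doubling.

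In cells with serum of IL-1RA rats, Olfm1 was at 7.80, 7.38, 7.76, 7.04, 7.88 and 8.04 on the 6 arrays by the lead probe set, with a median of 7.78. With serum of PBS rats it was at 7.06, 6.19, 5.84, 5.83, 6.00 and 6.85, with a median of 6.10. The PBS arrays 1 and 6 were the high ones of their group, and a single PBS array (7.06) lay above the lowest IL-1RA array (7.04). The group means were 7.65 ± 0.369 and 6.30 ± 0.534 (SD, n = 6 each).

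IL-1RA and PBS arrays share replicate numbers, and arrays of the same number deviated together: the lowest of the 6 correlations of their deviations from the group means was 0.401. Within the pairs, Olfm1 was higher with the IL-1RA serum by 0.73, 1.19, 1.92, 1.22, 1.88 and 1.19. The mean was 1.36 (SD 0.460), or 2.56-fold, and the difference was above 0 in 6 of 6 pairs. Pair 1, with the highest PBS array, had the smallest difference, and pairs 3 and 5 had the largest. Of all 31042 probe sets, 755 (2.43%) were higher in 6 of 6 pairs and 936 (3.02%) were lower in 6 of 6. Olfm1 ranked 1 among them by the mean difference and 1 by the smallest of the 6 differences, which is how it came to be chosen.

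The second probe set gave 5.02, 4.81, 5.15, 4.45, 4.58 and 5.46 with IL-1RA serum, and 4.36, 4.12, 4.32, 4.12, 4.07 and 5.14 with PBS serum. PBS array 6 stood above the other PBS arrays and above 4 of the 6 IL-1RA arrays. Its pair differences were 0.66, 0.69, 0.83, 0.33, 0.51 and 0.32, with a mean of 0.56 (SD 0.207), or 1.47-fold, again above 0 in 6 of 6 pairs. By this probe set Olfm1 ranked 264 by the mean difference and 10 by the smallest of the 6 differences. Across the 6 pairs the differences of both probe sets were only loosely related, with a Pearson r of 0.24 and a Spearman rho of 0.14, given as a description.

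**Figure D1:**
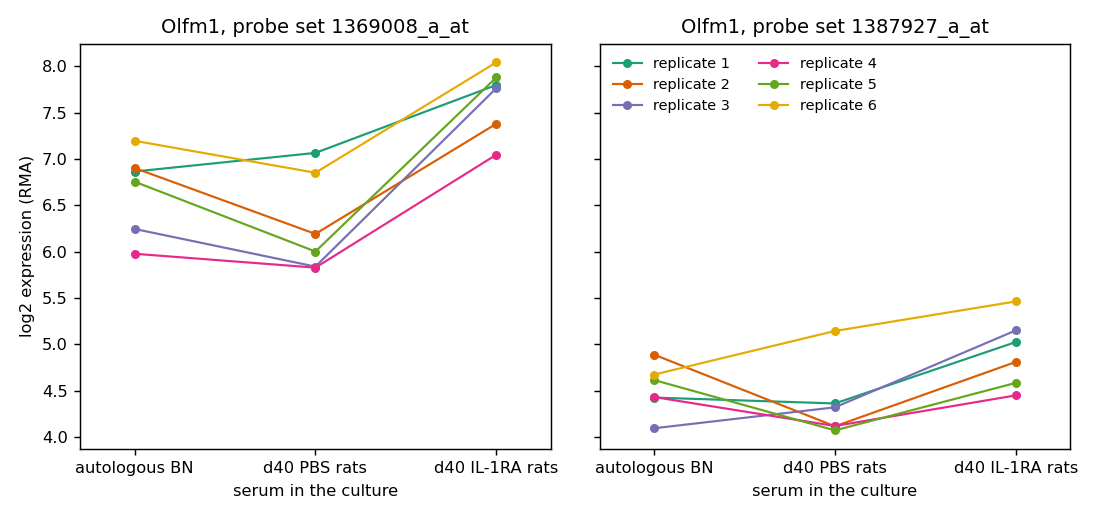
Log2 level of Olfm1 (vertical axis) with autologous BN serum, day-40 PBS serum and day-40 IL-1RA serum, one line per replicate number from 1 to 6, for the lead probe set (left) and the second probe set (right). Every line rises from PBS to IL-1RA serum, by 0.73 to 1.92 on the left and by 0.32 to 0.83 on the right.

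The day-40 contrast was also fitted over all probe sets, as background to the Olfm1 values. With limma, 0 probe sets passed an adjusted p of 0.05 without the replicate number in the model (0% of those tested, 318 at an unadjusted p under 0.05). With the replicate number as a block, 3 passed (0.00966%) and 3191 had an unadjusted p under 0.05; nothing is read from this fit for Olfm1, which the contrast chose. Among the 3 were Rasd1, a small Ras-related GTP-binding protein that glucocorticoids induce, at 0.74 (0.62 to 0.96 over the pairs), and the unnamed probe set 1397286_at at 0.98 (0.57 to 1.49). Rasd1 did not follow Olfm1 from pair to pair (r = -0.43), nor did the unnamed probe set (r = -0.04). The 23 probe sets (0.0741%) whose IL-1RA arrays all lay above all PBS arrays included neither Olfm1 probe set. By the lead probe set this was because of PBS array 1, and by the second because of PBS array 6.

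Beta-actin integrity values moved with this contrast. The 3′ minus 5′ difference was higher with IL-1RA serum in 6 of 6 pairs, by 0.22 to 0.74 (mean 0.38, SD 0.190), from a group mean of 3.52 to 3.90. Its pair differences had an r of 0.53 to those of Olfm1. For GAPDH, the other such control, the values of arrays 1 to 6 were 3.40, 3.37, 3.00, 3.19, 3.53 and 3.56 with IL-1RA serum. With PBS serum they were 3.37, 3.83, 3.33, 2.97, 2.74 and 3.69, so the GAPDH pairs went both ways. Over the arrays of a cluster, centred on their group means, Olfm1 had an r of -0.25 to the actin value in the first cluster (n = 21) and of -0.13 in the second (n = 32), as descriptions. With the actin value as a covariate the Olfm1 difference was 1.28, within the first cluster 1.42, and with the replicate block as well it was 0.87; the last 2 settings were chosen after seeing the data. The part of RNA integrity in the Olfm1 difference was not tested beyond these values.

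Autologous BN arrays 1 to 6 lie in the same cluster as the day-40 arrays and share their numbers (lowest correlation of deviations 0.153), and they give a level without BioBreeding serum. By the lead probe set they were at 6.86, 6.90, 6.24, 5.98, 6.75 and 7.20. IL-1RA serum exceeded them by 0.93, 0.48, 1.52, 1.07, 1.12 and 0.85, a mean of 0.99 (SD 0.343) or 1.99-fold, in 6 of 6 pairs; 443 probe sets (1.43%) were higher in 6 of 6. PBS serum minus autologous was 0.20, -0.71, -0.41, -0.15, -0.75 and -0.34, a mean of -0.36 (SD 0.358), lower in 5 of 6.

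Both sets of differences share the autologous arrays. Olfm1 was thus highest with IL-1RA serum in every numbered trio, and lowest with PBS serum in all but trio 1. The second probe set was less regular against the autologous arrays: IL-1RA serum was higher in 4 of 6 trios (mean 0.39), and PBS serum was lower in 4 of 6 (mean -0.17).

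Over all 8 groups, Olfm1 ran from 4.68 to 8.04 by the lead probe set. The 6 highest arrays included 5 of the 6 with IL-1RA serum, and the 8 highest included all 6. Mean levels of the remaining groups were 6.30 with day-40 PBS serum, 5.98 ± 0.945 with autologous serum (SD, n = 10) and 5.52 ± 0.382 with day-60 DRlyp/lyp serum plus IL-1RA (n = 4). Next came 5.51 ± 0.400 with day-60 DRlyp/lyp serum (n = 4), 5.50 ± 0.196 with day-60 DR+/+ serum (n = 4), 5.37 ± 0.590 with allogeneic serum (n = 15) and 5.27 ± 0.495 with autologous serum plus IL-1B (n = 4). From the PBS group downwards, each group differed from the next by less than the larger SD of the pair.

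**Figure D2:**
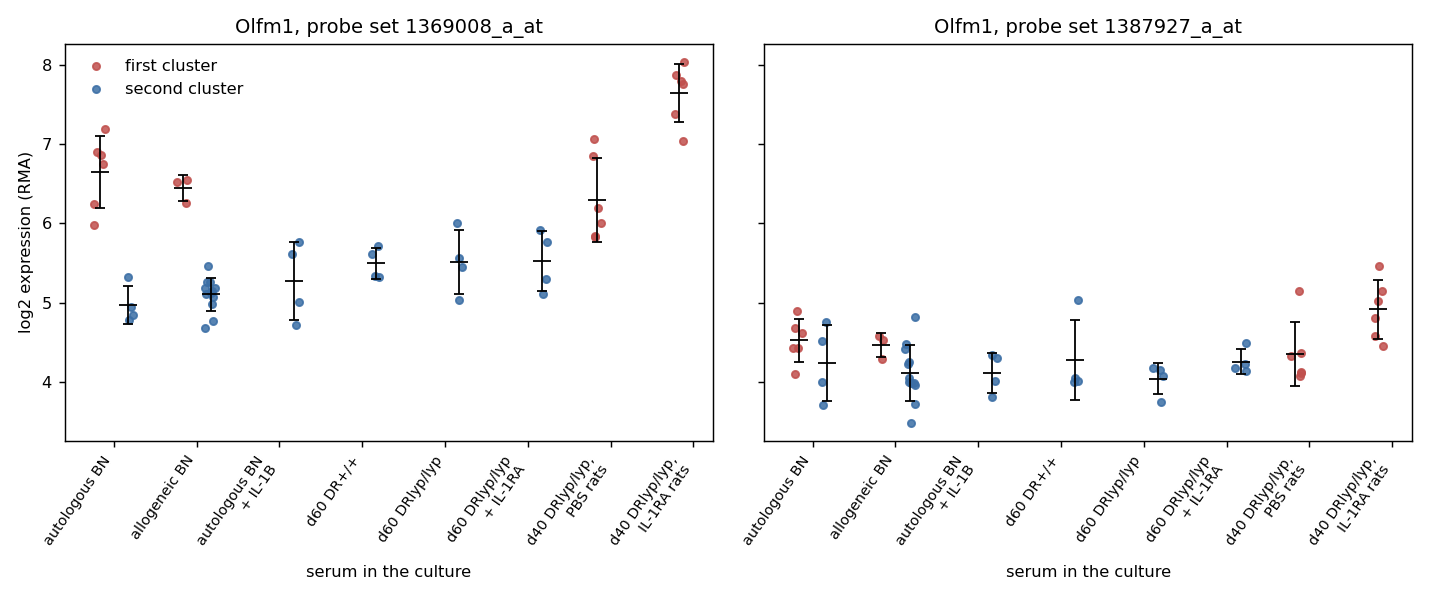
Log2 level of Olfm1 (vertical axis) on each of 53 arrays by serum group, for the lead probe set (left) and the second probe set (right); points are arrays coloured by cluster, bars are the mean and SD of a group within a cluster. The IL-1RA rats' arrays sit between 7.04 and 8.04 by the lead probe set, and the second cluster ends at 6.01.

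This order mixes the clusters. Autologous arrays of the first cluster averaged 6.66 ± 0.455 (SD, n = 6) and those of the second 4.97 ± 0.243 (n = 4), with values of 4.77, 4.95, 5.32 and 4.84, although both carry the same label. The gap was 1.69, and 2.04% of all probe sets had a larger one. Allogeneic arrays showed it as well: those of the first cluster were at 6.26, 6.53 and 6.55, and those of the second ran from 4.68 to 5.46 with a median of 5.13, a gap of 1.34. For the second probe set the same gaps were 0.28 and 0.35. By the lead probe set, the gaps between clusters of one label (1.69 and 1.34) were thus as wide as the mean difference between IL-1RA and PBS serum (1.36).

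Within the first cluster the order was IL-1RA serum 7.65, autologous 6.66, allogeneic 6.44 ± 0.164 (SD, n = 3) and PBS serum 6.30. Within the second it was DRlyp/lyp with IL-1RA 5.52, DRlyp/lyp 5.51, DR+/+ 5.50, IL-1B 5.27, allogeneic 5.10 ± 0.213 (n = 12) and autologous 4.97. The day-40 and day-60 DRlyp/lyp sera lie in different clusters, so the age of the serum donor and the cluster cannot be told apart. These are bulk RNA values, in which fewer cells of a type and less RNA per cell cannot be told apart.

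Added IL-1RA is the closest comparison to the treated rats, and none of its arrays chose Olfm1. With day-60 DRlyp/lyp serum alone, the lead probe set gave 5.45, 5.56, 6.01 and 5.03, and with IL-1RA added to the culture 5.30, 5.77, 5.92 and 5.11. The ranges overlapped almost entirely, and the differences by replicate number were -0.16, 0.21, -0.08 and 0.08. The fitted difference was 0.01 (SE 0.413; limma adjusted p = 1.00), with a 95% interval from -0.82 to 0.84. Within the second cluster it was 0.01 with an interval from -0.41 to 0.44 (exact two-sided permutation p = 0.971). None of these used the replicate numbers. Arrays of one number had a mean correlation of deviations of 0.384, against -0.124 between numbers. The lowest, 0.071, was under the 0.1 set for pairing. With the replicate number as a block the difference was 0.01 (SE 0.123).

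No probe set was called in this comparison (0%; 519 at an unadjusted p under 0.05 with limma). The second Olfm1 probe set differed by -0.02, 0.41, 0.00 and 0.47, a mean of 0.22 (SE 0.241; limma adjusted p = 1.00). The intervals for the lead probe set do not reach the mean of 1.36 seen between the treated and the PBS rats. That mean was the highest of all probe sets, by which Olfm1 was chosen, so it may be too large. It also comes from day-40 sera in the first cluster, whereas these are day-60 sera in the second. The intervals for the second probe set hold its own day-40 mean of 0.56. They ran from -0.27 to 0.70 over all arrays and from -0.25 to 0.69 within the second cluster, without the replicate numbers in the fit. Whether both contrasts differ was not tested, since one of them chose the gene.

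IL-1B added to autologous serum is the opposite manipulation. Olfm1 was at 5.61, 5.76, 5.01 and 4.72 with it, which spans most of the range of the second cluster. Against all 10 autologous arrays the difference was -0.71 (SE 0.345; limma adjusted p = 0.393), in a comparison where 0 probe sets were called (0%; 3932 at an unadjusted p under 0.05). Against the 4 autologous arrays of its own cluster it was 0.30 with a 95% interval from -0.12 to 0.73 (limma adjusted p = 1.00; exact two-sided permutation p = 0.314). By the lead probe set the sign therefore depended on which autologous arrays served as the control. By the second probe set it did not, with -0.30 against all autologous arrays and -0.13 against those of its cluster.

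DRlyp/lyp serum of day 60 was compared with autologous serum and with DR+/+ serum of the same day. Olfm1 was at 5.71, 5.33, 5.33 and 5.61 with DR+/+ serum, inside the range of the DRlyp/lyp arrays. The difference between both lines was 0.02 (SE 0.413; limma adjusted p = 1.00). Its interval ran from -0.81 to 0.85 over all arrays and from -0.41 to 0.44 within the second cluster. The replicate numbers paired these arrays, and with them as a block the difference was 0.02 (SE 0.210). In the fit over all arrays, 0 probe sets were called (0%; 946 at an unadjusted p under 0.05).

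Against all autologous arrays, the Olfm1 difference with DRlyp/lyp serum was -0.47 (SE 0.345; limma adjusted p = 0.491; 51 probe sets or 0.164% called). With DR+/+ serum it was -0.49 (SE 0.345; limma adjusted p = 0.697; 93 or 0.3% called). Within the second cluster both differences were positive, 0.54 for DRlyp/lyp (95% interval 0.12 to 0.97; limma adjusted p = 0.930; 0.00644% called) and 0.52 for DR+/+ (0.10 to 0.95; limma adjusted p = 0.261; 0.271% called).

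All 4 DR+/+ arrays lay above all 4 autologous arrays of that cluster, as 790 probe sets (2.54%) did, though by a narrow margin (5.33 against 5.32). The exact two-sided permutation p was 0.0286, the smallest that 4 against 4 arrays allow, and 0.171 after Benjamini-Hochberg adjustment over the 6 comparisons. For DRlyp/lyp it was 0.0571, or 0.171 adjusted. By the second probe set these differences were 0.03 for DR+/+ and -0.20 for DRlyp/lyp.

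Allogeneic against autologous BN serum was the single tested comparison in which Olfm1 was called. The pooled difference was -0.61 (SE 0.238; limma adjusted p = 0.0375), in a comparison that called 12614 probe sets (40.6%). It was not seen inside the clusters: the difference was -0.21 in the first (limma adjusted p = 0.775, 0.029% called; exact permutation p = 0.452) and 0.13 in the second (limma adjusted p = 0.746, 0.00644% called; permutation p = 0.315). With the cluster as a block it was -0.01 (limma adjusted p = 0.989; 0 probe sets called, 5242 at an unadjusted p under 0.05). The call was also lost when any of autologous arrays 1 to 6 or any of allogeneic arrays 4, 5, 6, 11, 12, 13 and 15 was left out (highest limma adjusted p 0.114).

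**Figure D3:**
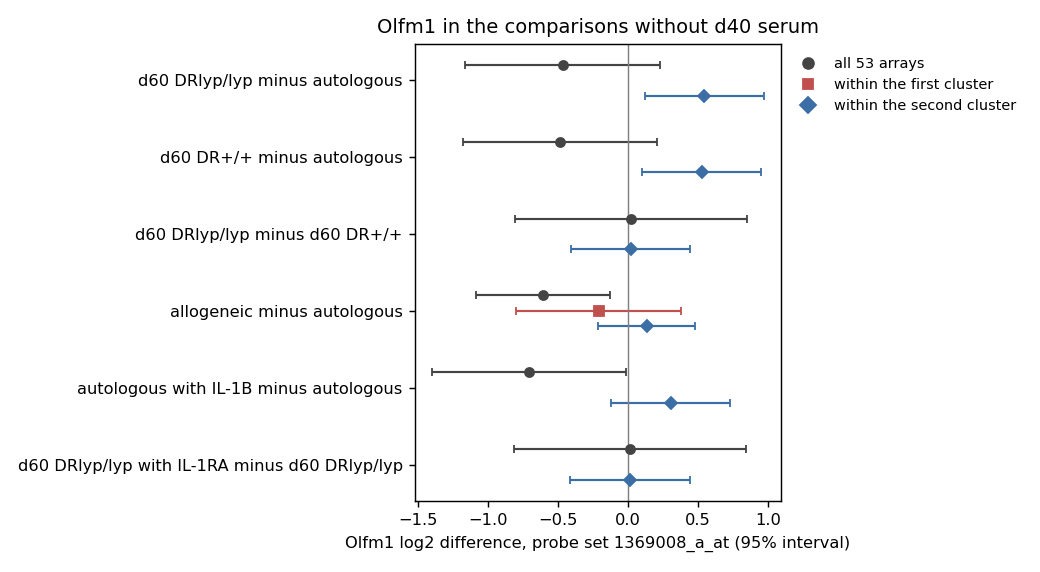
Difference in Olfm1 by the lead probe set (horizontal axis, log2) with its 95% interval for the 6 comparisons without day-40 serum, over all arrays and within each cluster that holds both groups. The comparisons with autologous serum change from below 0 over all arrays (-0.71 to -0.47) to above 0 within the second cluster (0.13 to 0.54), and the 2 without autologous arrays stay at 0.01 and 0.02.

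Both Olfm1 probe sets were set against each other over the arrays, centred on the means of each group within its cluster. Arrays of the same number deviated together in several groups and are not independent, so these correlations are descriptions with no p. In the first cluster the Pearson r was 0.65 and the Spearman rho 0.65 (n = 21), and without the 2 arrays farthest from the median the r was 0.63. Over the 6 pair differences, in which what the arrays of a number share is taken out, it was 0.24, as given above. In the second cluster r was 0.20 and rho 0.27 (n = 32), and r was 0.09 without 2 arrays. In the second cluster the second probe set ran from 3.48 to 5.03.

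Genes whose pair differences followed those of Olfm1 by the lead probe set were sought among 7593 probe sets that lay above the median level and varied between pairs. Over only 6 pairs, 18 of these (0.237%) had an r above 0.9 and 17 (0.224%) an r below -0.9, with a median of -0.10 over all. The highest were Il2rb, the beta chain of the IL-2 and IL-15 receptors (r = 0.95), the zinc finger gene Zfp503 (0.94), Jakmip1, which binds Janus kinases and microtubules (0.94), and C1h19orf33 (0.93). Next were Mier2 (0.93), the deubiquitinase Usp34 (0.93), Aplp2, a relative of the amyloid precursor protein (0.92), and Hbs1l, a ribosome rescue factor (0.92). The lowest were Grap2, a T-cell adaptor (-0.98), the Rac GTPase-activating protein Chn1 (-0.97), the snRNA transcription factor subunit Snapc4 (-0.97) and the thrombin receptor F2r (-0.97).

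When single pairs were left out, 0 to 6 of the 12 genes were still named. The 8 genes with the highest r were picked by these same 6 pair differences of the lead probe set, so their likeness there is no result. Their r to the pair differences of the second probe set ran only from -0.10 (Mier2) to 0.48 (Usp34). The mean differences of these 8 genes were near 0. Il2rb, for example, ran from -0.42 in pair 1 to 0.26 in pair 3, with a mean of -0.09, and was higher with IL-1RA serum in 2 of 6 pairs. The means of the 8 highest ran from -0.12 to 0.03. Of the 4 lowest, Grap2 had a mean of 0.17 and was higher with IL-1RA serum in 4 of 6 pairs. Over the other 41 arrays, which the choice did not use, the r of the 8 highest to Olfm1 ran from -0.13 to 0.25, and Il2rb was at 0.05. Of the 18 probe sets with a pair r above 0.9, 61.1% had a positive r over those arrays, against 59.5% of all compared. Of the 17 below -0.9, 29.4% had a negative one. The median r of these 17 over those arrays was 0.07, against 0.04 for all compared in the pairs.

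Likeness over those 41 arrays gave other names. The highest r were with Per3, a component of the circadian clock (0.62), Pde4dip, a centrosomal anchor of phosphodiesterase 4D (0.59), the scaffold Magi3 (0.56), Mfhas1 (0.53), the spindle checkpoint gene Mad1l1 (0.53) and the ubiquitin ligase Pja1 (0.52). The lowest were with Cldnd1 (-0.47), the salt-inducible kinase Sik1 (-0.46) and the protease inhibitor Serpinb1a (-0.45). For Per3 the r was 0.59 over the 9 first-cluster arrays among the 41 and 0.63 over the 32 second-cluster arrays. Both parts belong to the arrays that picked Per3, so neither is a separate check. In the day-40 pairs the 6 highest had an r between -0.38 and 0.39, and 0 genes were named by both searches. The arrays of one group share serum type and cluster, and these correlations are descriptions.

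**Figure D4:**
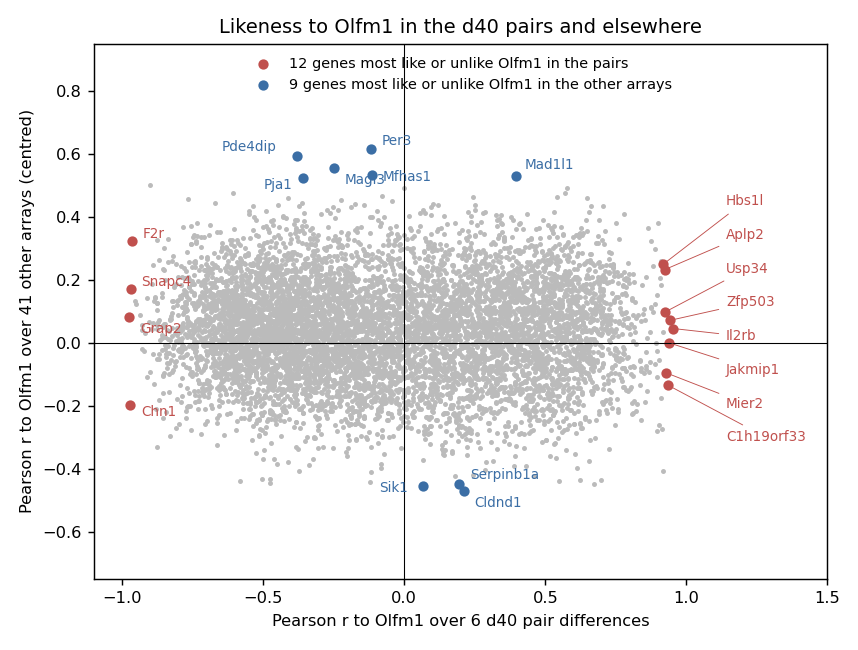
Pearson r of each probe set to Olfm1 over the 6 day-40 pair differences (horizontal axis) and over the 41 other arrays on centred values (vertical axis); coloured points are the genes named in the text. The genes with the highest r in the pairs lie between -0.13 and 0.25 on the vertical axis, and those with the highest r elsewhere lie between -0.38 and 0.39 on the horizontal axis.

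None of the measured relatives of Olfm1 passed the test between IL-1RA and PBS serum, in which 0 of all 31042 probe sets passed. That 0 members of a list passed was thus fixed in advance, and nothing is read from it. Of all probe sets, 318 had an unadjusted p under 0.05. Of the 12 other members of the olfactomedin-domain family, 9 were measured, 0 passed the test with limma (0 at an unadjusted p under 0.05 as well), and their median difference was -0.02, against -0.01 over all genes. Olfml2b, an extracellular matrix protein, was at 5.20 with IL-1RA and 5.40 with PBS serum, Myoc, the glaucoma gene myocilin, at 5.47 and 5.38, and Olfml1 at 4.96 and 5.05. Known partners of olfactomedin 1 and their complexes gave 0 of 15 (0 at an unadjusted p under 0.05) and a median of -0.03, with 7 of 15 above 0. Among them were the AMPA receptor subunits Gria2 at -0.17 and Gria4 at 0.17, and the Nogo receptor partner Lingo1 at -0.11. The neighbouring protein-coding genes on the chromosome, in the GRCr8 assembly, differed by -0.16 (Ppp1r26) to 0.02 (a probe set of Col5a1).

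The IL-1 pathway was followed as the target of the treatment. Of 22 genes, 0 passed with limma, in a fit where 0 of all 31042 probe sets passed. At an unadjusted p under 0.05 there were 0, and 8 with the replicate block, a fit that gave 3191 of 31042 probe sets. The median difference was -0.01. Il1b, the cytokine itself, was at 8.77 with IL-1RA and 9.12 with PBS serum (SD 1.59 and 1.38), Il1rn, which encodes the rat's own IL-1RA, at 4.47 and 4.49, and the signalling receptor Il1r1 at 4.23 and 4.24. The decoy receptor Il1r2 was at 7.53 and 7.13 (SD 2.27 and 1.89). Icam1, an adhesion molecule, was lower in 6 of 6 pairs by a mean of -0.26, as were 3.02% of all probe sets. Nfkbiz, a nuclear NF-kappaB cofactor, was higher in 6 of 6 by 0.31, as were 2.43%. These 2 genes went opposite ways, and no response of the list is read from them. Over the 22 genes the mean differences ran from -0.34 (Il1b) to 0.61 (Cxcl2), and 10 were above 0. In the cultures with added IL-1B and with added IL-1RA, 0 of the 22 passed with limma, where 0 of all 31042 probe sets passed. At an unadjusted p under 0.05 there were 2 and 0 of the 22, against 3932 and 519 of all probe sets. The medians were 0.04 and 0.03.

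Cell type markers were summarised as the mean level of each list. T-cell markers were lower with IL-1RA serum for 14 of 14 genes, with a median of -0.15 and a range of the list level over pairs from -0.24 to -0.05. Lck, the T-cell kinase, was at 11.66 and 11.95. Natural killer markers had a median of -0.16 (list level -0.14 to -0.02 over pairs), B-cell markers -0.19 (-0.51 to 0.08), monocyte markers -0.03 (-0.27 to 0.37) and neutrophil markers 0.01 (-0.28 to 0.15).

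Platelet markers had a median of 0.05 (-0.23 to 0.34), and erythroid markers had a median of 0.07 (-0.11 to 0.20). The platelet matrix protein Mmrn1 was higher in 6 of 6 pairs by a mean of 0.33, as 2.43% of all probe sets were higher. Neural markers, the tissue Olfm1 is known from, had a median of -0.04 (-0.23 to 0.04), and 2 of 12 were above 0. With limma, 0 genes of these 8 lists passed in the day-40 contrast, with or without the replicate block. Those fits called 3 and 0 of all 31042 probe sets. Across the 6 pairs the B-cell list had an r of -0.80 to the Olfm1 difference, as a description among 12 measures. The list of olfactomedin 1 partners had 0.72, the platelet list -0.71 and the natural killer list 0.71. The IL-1 list had -0.68 and the neutrophil list -0.66, so similar values were not particular to one kind of list. Their part in the result was not tested.

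**Figure D5:**
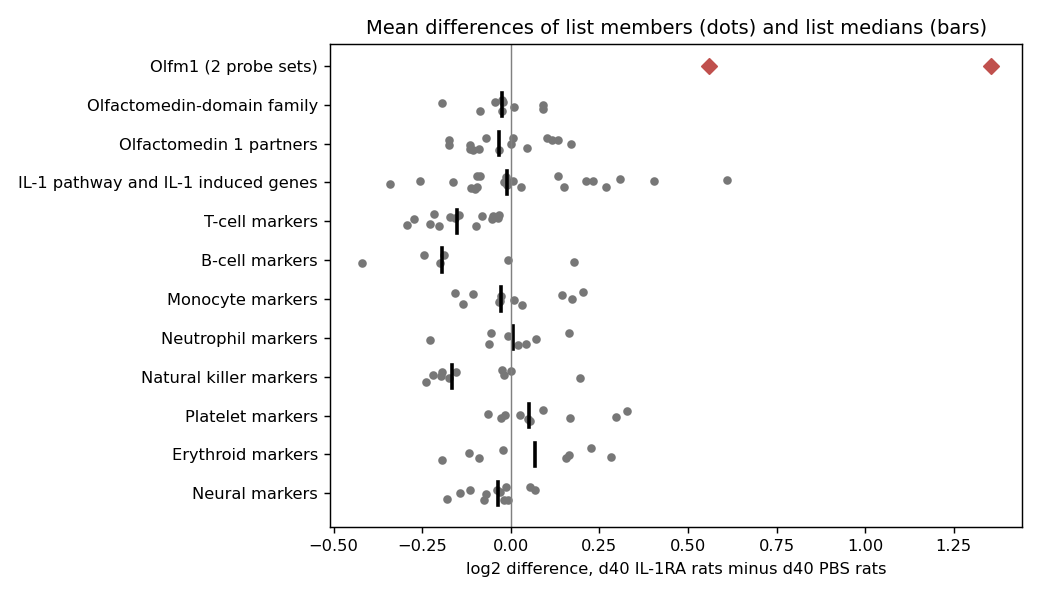
Mean log2 difference between IL-1RA and PBS serum at day 40 (horizontal axis) for each measured member of 11 gene lists (dots, with a bar at the list median) and for the 2 Olfm1 probe sets (diamonds). List medians lie between -0.19 and 0.07, single members between -0.42 (Cd79b) and 0.61 (Cxcl2), and the Olfm1 probe sets are at 0.56 and 1.36.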

How the data were processed

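RNA of 53 PBMC cultures was hybridised to Affymetrix rat arrays. The deposited table holds log2 expression values per probe set, made by the authors with RMA and Partek 6.2, per the submitters' processing notes; the build is not given in the sources used here. Of 31099 probe sets, 57 controls were left out. Of the 31042 others, 20826 carry 1 gene symbol in the platform annotation, 436 several and 9780 none. Array medians ran from 5.29 to 5.62.

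A limma 3.58.1 model (R 4.3.3) of 8 group means, with an intensity trend, was fitted to all probe sets, with Benjamini-Hochberg adjustment and calls at 0.05; it was tested on simulated data. Permutation tests of group differences were exact or used 100000 resamples; those planned for correlations over arrays are not given, since arrays of one number were not independent. Clusters came from Ward clustering, and 2 other methods, k-means and complete linkage, gave the same assignment for 53 of 53. Olfm1 and the gene lists were chosen with earlier results of these data known. The text names Olfm1, the 8 highest and 4 lowest genes by likeness in the pairs (SD of differences at least 0.2), the 6 and 3 over the other arrays, IL-1 and family members, up to 2 genes by p of each other list, and neighbours. Cxcl2 and Cd79b are named as the list members with the highest and the lowest day-40 difference. Marker lists covered T-cell, B-cell, monocyte, neutrophil, natural killer, platelet, erythroid and neural markers.

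Replicate numbers come from the labels. They paired the arrays, by a lowest correlation above 0.1, for the day-40 groups, for these and autologous arrays 1 to 6, and for DRlyp/lyp and DR+/+ sera. Alternatives were the cluster or replicate block, the actin covariate, array centring, a second quantile normalisation, no trend, a filter on low values, the 2 groups alone, the second probe set, and leaving out single arrays.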

Additional observations from a re-analysis of the deposited data

Results flagged for a closer look

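Among 14 sets of Olfm1 values (2 probe sets in the 7 groups of 4 to 10 arrays), 2 held an array far from the rest, both by the second probe set; chance gives about 1 in 20. With day-40 PBS serum, array 6 was at 5.14 and the others at 4.07 to 4.36. With day-60 DR+/+ serum, array 4 was at 5.03 and the others at 3.99 to 4.05. The lead probe set gave 6.85 and 5.61 on the same arrays.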

How the results depend on the processing

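Olfm1 was chosen from the contrast of IL-1RA and PBS serum, and both probe sets were above 0 in 6 of 6 pairs. A sign kept in reruns of the same arrays is therefore a description and no support. The mean Olfm1 difference between IL-1RA and PBS serum kept its sign in every alternative run. It was 0.56 by the second probe set, also within the first cluster and with the replicate block, and 0.87 with the replicate block and the actin covariate, and 1.26 to 1.51 when single arrays were left out. IL-1RA serum minus all autologous arrays was 1.67, 0.50 by the second probe set, 0.39 by it within the first cluster and 1.53 to 1.80 without single arrays. PBS serum minus autologous was 0.31 over all arrays (0.16 to 0.45 without single arrays) and turned to -0.053 by the second probe set, -0.29 with the cluster as a block, -0.36 within the first cluster, -0.17 there by the second probe set and -0.36 with the replicate block.

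By the lead probe set, the differences of DRlyp/lyp, DR+/+ and IL-1B serum from autologous serum turned sign with the cluster. DRlyp/lyp was 0.44 with the cluster block and 0.54 within the second cluster, DR+/+ 0.42 and 0.52 (0.031 there by the second probe set), and IL-1B 0.20 and 0.30; by the second probe set DRlyp/lyp (-0.20) and IL-1B (-0.13) stayed below 0 within the second cluster. Without single arrays they were -0.63 to -0.31, -0.62 to -0.35 and -0.87 to -0.52. The replicate block, in which autologous arrays 1 to 4 are all of the first cluster and the numbers did not pair the arrays, gave -0.98 for DRlyp/lyp (limma adjusted p = 0.00663), a negative value for DR+/+ (limma adjusted p = 0.0538) and -1.22 for IL-1B (limma adjusted p = 0.00646), and raised the called probe sets from 51 to 8392, from 93 to 880 and from 0 to 10876; it called 0 against 12614 for allogeneic serum.

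The allogeneic call was not kept with the second probe set (-0.23), the cluster block (-0.0053), the first cluster (-0.21, and -0.057 by the second probe set), the second cluster (0.13 and -0.13), the replicate block (-0.47), the actin covariate (-0.48), a second quantile normalisation (-0.61, limma adjusted p = 0.0623), the 2 groups alone (-0.61, limma adjusted p = 0.0998) or a permutation test (-0.61, p = 0.0625); without single arrays it was -0.75 to -0.48. DRlyp/lyp minus DR+/+ was -0.23 by the second probe set and -0.15 to 0.18 without single arrays. Added IL-1RA was -0.025 with the actin covariate, -0.010 with centred arrays, -0.012 with a second quantile normalisation and -0.15 to 0.18 without single arrays. Of the 12 genes most like or unlike Olfm1 in the pairs, 2 were still named by Spearman's rho, 0 by the second probe set, 9 with centred arrays and 0 to 6 without single pairs. The cause of these changes was not tested. Settings that combine a cluster with a probe set or a permutation test were chosen after seeing the data.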
